A study of Homo sapiens with 6 samples.

Results

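The genes of this account are the alpha- and beta-tubulin isotypes whose names match a set list of 10 symbols, which stand for 9 genes because TUBB is called Tubb5 in the mouse. They are TUBA1A, TUBA1B and TUBA1C for alpha-tubulin, and TUBB, TUBB2A, TUBB2B, TUBB3, TUBB4B and TUBB6 for beta-tubulin. The mouse table held 9 matching entries of 49089, and each human table held 17 of 63521, because TUBB and TUBB3 are listed more than once there. All 9 genes were measured in every library, out of 89150 distinct gene names in the series. RNA was sequenced from LARP7-/- and wild-type mouse embryonic fibroblasts (MEFs), from MDA-MB-231 cells given siLARP7 or siNC, and from HCC1937 cells given siLARP7 or siNC. The MEFs came from embryos at E13.5 and were at passage 1 to 6. Each siRNA was used at 10 ng/ml on both of these established human breast cancer lines, of which HCC1937 is known for its mutant BRCA1. LARP7 is an RNA-binding protein of the 7SK particle, which holds the elongation kinase P-TEFb inactive. The title of the series calls LARP7 a substrate of BRCA1. Each of the 6 groups is 1 library, so no difference below could be set against a spread between replicates, and no test was run.

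Alpha- and beta-tubulin pair into the dimer from which microtubules are built, and several genes encode near-identical isotypes of each. Cells adjust their own tubulin mRNA: when free dimer is in excess, the factor TTC5 recognises the first residues of nascent tubulin at the ribosome and brings SCAPER and the CCR4-NOT deadenylase to the mRNA, which is then degraded. The isotypes differ most in their C-terminal tails, where chains of glutamate are added and removed. TUBB3 is the isotype of neurons, TUBA1A is abundant in developing brain, and TUBB, TUBB4B, TUBA1B and TUBA1C are used by most dividing cells.

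The start of the coding sequence is shown because it encodes the residues that TTC5 reads. The sequences are those of human transcripts in GENCODE release 29 (GRCh38), with the first 12 bases in capitals.
TUBA1A: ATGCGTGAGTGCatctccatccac
TUBA1B: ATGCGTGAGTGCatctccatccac
TUBA1C: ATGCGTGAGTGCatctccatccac
TUBB: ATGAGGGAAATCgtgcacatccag
TUBB2A: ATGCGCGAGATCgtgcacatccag
TUBB2B: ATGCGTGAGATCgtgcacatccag
TUBB3: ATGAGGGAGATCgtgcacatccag
TUBB4B: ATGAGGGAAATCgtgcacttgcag
TUBB6: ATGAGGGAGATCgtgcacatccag
The 3 alpha-tubulin genes shared the same first 12 bases. Among the 6 beta-tubulin genes there were 4 versions of these bases, with TUBB and TUBB4B alike and TUBB3 and TUBB6 alike. All 4 versions encode the same residues, methionine, arginine, glutamate and isoleucine. The transcripts of TUBA1B (chr12:49127782-49131395), TUBA1A (chr12:49184959-49188899) and TUBA1C (chr12:49264907-49274603) lie side by side, the first pair on the minus and TUBA1C on the plus strand. TUBB2A (chr6:3153669-3157526) and TUBB2B (chr6:3224261-3227735) are neighbours on the minus strand, and TUBB (chr6:30720201-30725426) is on the plus strand of the same chromosome. TUBB3 (chr16:89923279-89936097), TUBB4B (chr9:137241213-137243707) and TUBB6 (chr18:12308059-12326619) are on the plus strand.

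The end of the coding sequence is shown because it encodes the tail that sets isotypes apart. The last 60 bases of 4 beta-tubulin genes are printed with the codons GAA and GAG in capitals, which encode glutamate.
TUBB: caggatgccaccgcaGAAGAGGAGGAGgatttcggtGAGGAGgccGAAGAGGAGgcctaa
TUBB4B: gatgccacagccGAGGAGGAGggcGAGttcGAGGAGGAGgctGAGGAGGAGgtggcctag
TUBB6: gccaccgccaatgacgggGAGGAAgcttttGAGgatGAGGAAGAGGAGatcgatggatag
TUBB3: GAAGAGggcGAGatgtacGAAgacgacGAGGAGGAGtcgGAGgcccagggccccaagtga
Of these 20 codons, which include the stop codon, 10 encode glutamate in TUBB4B, 9 in TUBB, 8 in TUBB3 and 7 in TUBB6. TUBB2A and TUBB2B, not printed, have 8 each. The counts are for this fixed window and not for whole tails.

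How far reads can be shared bears on each separate value below. The coding sequences of TUBA1A and TUBA1B were 97.2% identical, those of TUBA1B and TUBA1C 96.8%, and those of TUBB2A and TUBB2B 98.1%. Of all stretches of 50 bases in the coding sequence, 58.4% of those in TUBA1A, 68.3% in TUBA1B, 57.0% in TUBA1C and 72.4% in TUBB2A also occur in another of the 9 genes, against 7.29% in TUBB4B, 1.55% in TUBB6 and 0% in TUBB. The levels of the 3 alpha genes relative to each other, and of TUBB2A relative to TUBB2B, are therefore uncertain in the human lines, because the sources used here do not give the authors' handling of reads with several matches. TUBB itself shares 33.4% of these stretches with genes named as tubulin pseudogenes. TUBB has 8 entries in each human table, with 211 to 218 RPKM (siLARP7) and 207 to 216 RPKM (siNC) in HCC1937, and 496 to 548 RPKM (siLARP7) and 438 to 478 RPKM (siNC) in MDA-MB-231, and the entry that GENCODE places on chromosome 6 is used. TUBB3 has a second entry for an overlapping locus that GENCODE names AC092143.1, and 95.8% of its stretches of 50 bases occur in that locus or another tubulin gene or pseudogene. The entry that GENCODE names TUBB3 is used. Sequences of the mouse genes were not used here, so the sharing of reads was not examined in MEFs. The separate MEF values of Tuba1a, Tuba1b, Tuba1c, Tubb2a and Tubb2b may carry the same uncertainty.

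RPKM scales reads by gene length and by library size, so levels of different genes are per length. Read totals recovered from the steps of the RPKM values ran between 36.9 M and 53.3 M over the 6 libraries. LARP7 RNA was at 37.6% of the wild-type level in LARP7-/- MEFs, at 52.2% of the siNC level in MDA-MB-231 and at 51.4% in HCC1937. All 8 fibroblast markers were measured (at least 1 RPKM in 1 library of the pair) in MEFs, and all 7 epithelial markers in HCC1937. MDA-MB-231 had 4 of 7 epithelial and 2 of 8 fibroblast markers. Neuron markers, which could go with TUBB3, summed to 0.949 RPKM over 8 genes in LARP7-/- and 0.991 RPKM in wild-type MEFs, 2.96 (siLARP7) and 5.84 RPKM (siNC) in MDA-MB-231, and 3.43 (siLARP7) and 3.33 RPKM (siNC) in HCC1937. Their part in the TUBB3 values was not tested.

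The MEF comparison sets a LARP7 knockout against the wild type outside cancer cells. Tubulin RNA was lower in the knockout library for 8 of the 9 genes, and Tubb2a was level. The summed level of the 9 genes was 2408 RPKM in LARP7-/- and 3549 RPKM in wild-type MEFs, 67.8% of the wild-type level (log2 ratio of RPKM + 1, knockout over wild-type, -0.56). Of all 14479 genes measured, 50% were below 0 on that scale and the median was 0.00, and the 597 genes at 100 RPKM or more in wild-type MEFs had a median of -0.10 with 64.2% below 0. In a bulk library, fewer cells of a type and less RNA per cell cannot be told apart. Fibroblast markers stood at a summed 2409 RPKM in LARP7-/- and 2224 RPKM in wild-type MEFs, with 6 of 8 above 0. The called ones were Dcn, at 92.6 RPKM in LARP7-/- and 16.8 RPKM in wild-type MEFs (log2 ratio 2.40), and Lum, at 38.3 RPKM in LARP7-/- and 10.6 RPKM in wild-type MEFs (log2 ratio 1.76), which encode proteoglycans of the matrix. Of 8 leukocyte markers listed 4 were measured and all 4 were above 0, with summed levels of 38.7 RPKM in LARP7-/- and 29.4 RPKM in wild-type MEFs, while the pan-leukocyte marker Ptprc was at 0.0293 RPKM in LARP7-/- and 0.0370 RPKM in wild-type MEFs. The part of these markers in the tubulin levels was not tested.

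No tubulin gene reached a 2-fold difference in MEFs, a size that 3.29% of all measured genes reached (2.4% of all genes higher, 0.884% lower). At 1.5-fold, 4 of 9 were lower and none higher, against 4.02% of all genes lower and 7.98% higher. Tuba1b, the alpha-tubulin of most dividing cells, was at 514 RPKM in LARP7-/- and 882 RPKM in wild-type MEFs (log2 ratio -0.78), the lowest ratio of the 9 genes. Its ratio stood at percentile 1.89 of all measured genes. Tuba1c was at 305 RPKM in LARP7-/- and 462 RPKM in wild-type MEFs (log2 ratio -0.60). Tuba1a, known for its part in neuronal migration, was at 554 RPKM in LARP7-/- and 746 RPKM in wild-type MEFs (log2 ratio -0.43). All 3 alpha genes were thus lower in the knockout library, with summed levels of 1373 RPKM in LARP7-/- and 2090 RPKM in wild-type MEFs.

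Among beta-tubulin genes, Tubb5, the mouse form of TUBB and the main beta isotype of dividing cells, was at 408 RPKM in LARP7-/- and 642 RPKM in wild-type MEFs (log2 ratio -0.65). Tubb6, an isotype whose raised levels disturb microtubules, was at 359 RPKM in LARP7-/- and 495 RPKM in wild-type MEFs (log2 ratio -0.46). Tubb4b was at 114 RPKM in LARP7-/- and 155 RPKM in wild-type MEFs (log2 ratio -0.44). The low gene Tubb3 was at 9.32 RPKM in LARP7-/- and 15.4 RPKM in wild-type MEFs (log2 ratio -0.66, or -0.71 with a pseudocount of 0.1). The neighbouring pair stood apart from these: Tubb2a was at 77.7 RPKM in LARP7-/- and 77.5 RPKM in wild-type MEFs, and Tubb2b at 67.0 RPKM in LARP7-/- and 74.6 RPKM in wild-type MEFs. Tubb2a stayed at or just above 0 and Tubb2b below it under both scalings of the libraries that were tried. The authors' deposited table lists log2 changes from -0.76 for Tuba1b to 0 for Tubb2a.

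**Figure D1:**
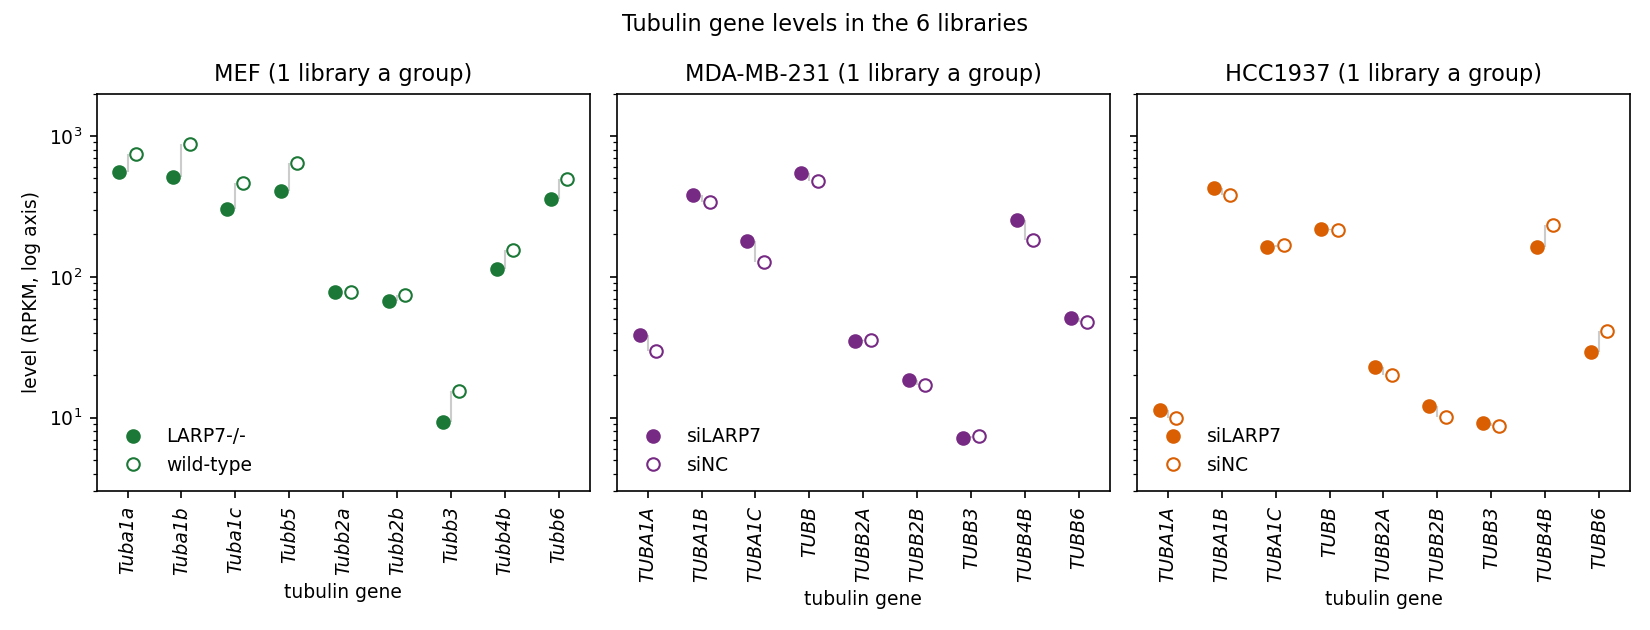
Level of each tubulin gene (RPKM, log axis) in the LARP7-depleted library (filled points, left) and its control (open points, right) of MEFs, MDA-MB-231 and HCC1937, 1 library a group. Open points lie above filled ones for 8 of 9 genes in MEFs, and filled points lie above open ones for 7 of 9 in MDA-MB-231.

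The siRNA comparison in MDA-MB-231 sets siLARP7 against siNC in a breast cancer line. Tubulin RNA was higher with siLARP7 for 7 of the 9 genes, where 50.2% of all 17575 measured genes were higher and 49.8% lower. None reached 2-fold, a size reached by 1.24% of all genes (0.501% higher, 0.74% lower), and none reached 1.5-fold (2.88% of all genes higher, 4.03% lower). The summed level was 1508 RPKM with siLARP7 and 1265 RPKM with siNC, 119% of the siNC level (log2 ratio 0.25), beside a median of 0.00 over all measured genes and -0.05 over the 512 genes at 100 RPKM or more.

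The differences were widest for TUBA1C and TUBB4B. TUBA1C was at 178 RPKM with siLARP7 and 127 RPKM with siNC (log2 ratio 0.48), 139.9% of the siNC level with a 95% counting interval from 138 to 142%. TUBB4B, a beta isotype of most tissues that is also built into cilia, was at 252 RPKM with siLARP7 and 183 RPKM with siNC (log2 ratio 0.46), 138% with an interval from 135 to 140%. TUBA1A was at 38.7 RPKM with siLARP7 and 29.8 RPKM with siNC (log2 ratio 0.37). Reads shared among the alpha genes touch TUBA1A and TUBA1C, while the stretches that TUBB4B shares lie in other beta-tubulin genes and pseudogenes.

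The most abundant genes differed less in this line. TUBB was at 548 RPKM with siLARP7 and 478 RPKM with siNC (log2 ratio 0.20), and TUBA1B at 379 RPKM with siLARP7 and 338 RPKM with siNC (log2 ratio 0.16). TUBB6 was at 51.3 RPKM with siLARP7 and 47.9 RPKM with siNC (log2 ratio 0.10), and TUBB2B at 18.6 RPKM with siLARP7 and 17.1 RPKM with siNC (log2 ratio 0.11). For TUBB2A, at 35.1 RPKM with siLARP7 and 35.5 RPKM with siNC, the interval from 94.1 to 104% of the siNC level includes no difference. The same holds for TUBB3, at 7.12 RPKM with siLARP7 and 7.43 RPKM with siNC, with an interval from 89.5 to 103%. The neuron marker SYP, a synaptic vesicle protein, was at 1.54 RPKM with siLARP7 and 4.36 RPKM with siNC. It was the only 1 of 8 neuron markers measured in this line. The others were below 1 RPKM in both libraries, among them NEFM, higher at 0.291 RPKM with siLARP7 and 0.0829 RPKM with siNC. The second entry named TUBB3 was at 15.4 RPKM with siLARP7 and 15.1 RPKM with siNC. All 9 signs stayed the same with the trend over GC, gene length and level taken out, where TUBA1C was at 0.50 and TUBB4B at 0.43. These intervals cover counting error only, with about 98229 (siLARP7) and 79622 (siNC) reads for TUBB and 1683 (siLARP7) and 1633 (siNC) for TUBB3.

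HCC1937 extends the siRNA comparison to a line with mutant BRCA1, and its values carry a shift, since the median log2 ratio of all 15797 measured genes was -0.14. Tubulin genes differed among themselves more than they moved together: TUBB4B and TUBB6 were lower with siLARP7, and the other 7 genes lay between -0.04 and 0.25 on the log2 scale. The summed level was 1056 RPKM with siLARP7 and 1088 RPKM with siNC (log2 ratio -0.04), and it was above 0 with a median ratio of 1 (0.09) or a trimmed mean (0.10). It was at -0.34 with the trend over GC, gene length and level taken out, which keeps the shift, and at -0.17 without TUBA1B. None reached 2-fold, a size reached by 1.63% of all genes (0.399% higher, 1.23% lower), or 1.5-fold (2.75% higher, 10.8% lower). As deposited 6 of 9 genes were higher with siLARP7, against 35.6% of all genes higher and 64.4% lower. Of the 578 genes at 100 RPKM or more, 28.7% were lower and the median log2 ratio was 0.12.

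TUBB4B was at 163 RPKM with siLARP7 and 234 RPKM with siNC (log2 ratio -0.51), 69.9% of the siNC level with an interval from 68.5 to 71.2%. Relative to the shift it was at -0.38, and with the trend removed, which keeps the shift, at -0.94. TUBB6 was at 29.04 RPKM with siLARP7 and 41.0 RPKM with siNC (log2 ratio -0.48), 70.9% with an interval from 68.5 to 73.3%, and at -0.35 relative to the shift. Both stayed lower under each of these settings.

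The other genes of HCC1937 lay above the median of all genes, although with the trend removed 5 of these 7 were below 0. Against the median of genes at 100 RPKM or more (0.12), TUBB and TUBA1C lay below and TUBA1B above. TUBA1B was at 428 RPKM with siLARP7 and 382 RPKM with siNC (log2 ratio 0.16, or -0.14 with the trend removed). TUBB was at 218 RPKM with siLARP7 and 216 RPKM with siNC (log2 ratio 0.02, or -0.25 with the trend removed), and its interval, 99.8 to 103% of the siNC level, includes no difference. TUBA1C was at 162 RPKM with siLARP7 and 167 RPKM with siNC (log2 ratio -0.04), but at 0.09 with a median ratio of 1. Among the low genes, TUBB2A was at 22.9 RPKM with siLARP7 and 19.9 RPKM with siNC, TUBB2B at 12.2 RPKM with siLARP7 and 10.1 RPKM with siNC, and TUBA1A at 11.3 RPKM with siLARP7 and 9.93 RPKM with siNC. With the trend removed TUBB2A was at -0.07, and TUBB2B (0.11) and TUBA1A (0.14) remained above 0. TUBB3 was at 9.11 RPKM with siLARP7 and 8.71 RPKM with siNC (log2 ratio 0.06, or -0.16 with the trend removed), and its second entry at 18.7 RPKM with siLARP7 and 18.2 RPKM with siNC. For this line the authors' deposited table has -0.48 as the log2 change of TUBB4B, -0.44 for TUBB6, and 0 for TUBB and TUBB3.

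**Figure D2:**
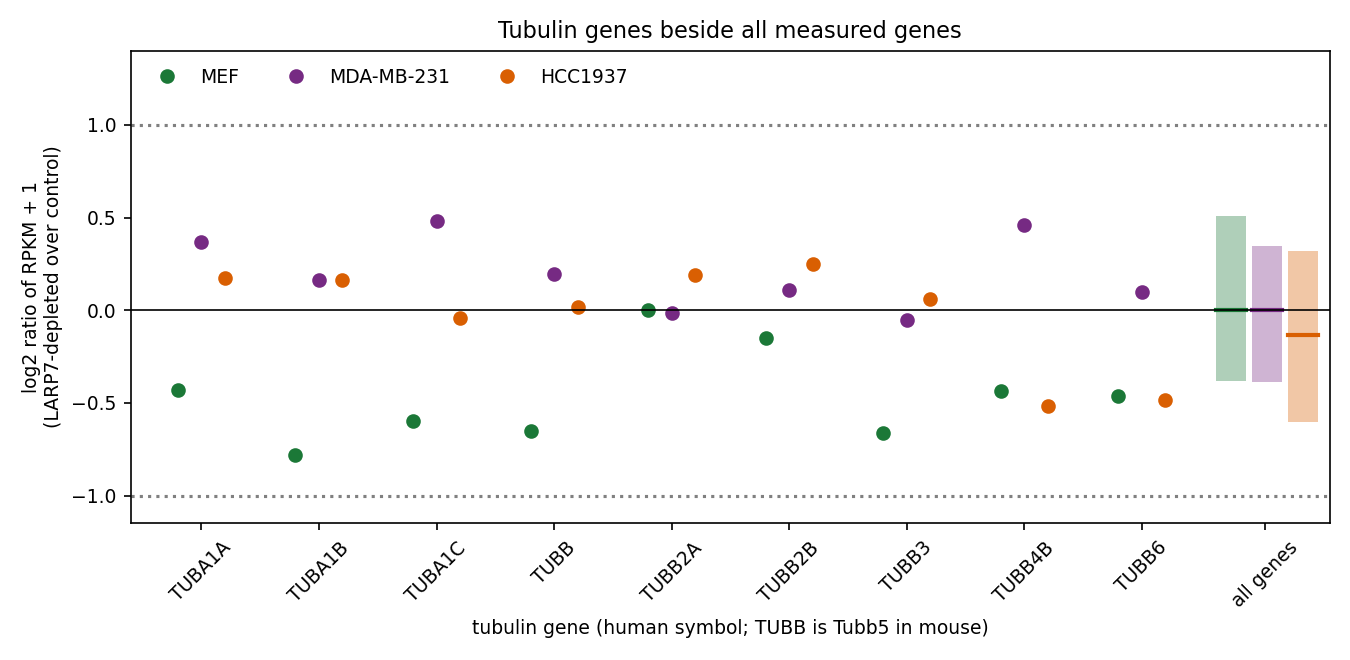
Log2 ratio of RPKM + 1, LARP7-depleted over control, of each tubulin gene in the 3 cell types, with bars for the 10th to 90th percentile and a line for the median of all measured genes, and dotted lines at the 2-fold size. No point passes the dotted lines, and TUBB4B runs from -0.51 in HCC1937 to 0.46 in MDA-MB-231.

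Set side by side as deposited, no tubulin gene had the same sign in all 3 comparisons. However, the signs of TUBB2A and TUBB3 in MDA-MB-231 are within counting error. So are those of TUBB and TUBB3 in HCC1937, with TUBB3 from 98.3 to 111% of the siNC level, and Tubb2a was level in MEFs. With the trend removed in the lines, TUBB3 was at -0.16 in MDA-MB-231 and -0.16 in HCC1937, beside -0.66 in MEFs, where no trend was removed. The HCC1937 value keeps the shift of that line, whose median over all genes was -0.14. TUBB4B had log2 ratios of -0.44 in MEFs, 0.46 in MDA-MB-231 and -0.51 in HCC1937, and TUBB6 had -0.46, 0.10 and -0.48. TUBA1B had -0.78, 0.16 and 0.16 in the same order. LARP7 was knocked out in MEFs and targeted by siRNA in the lines, so the comparisons differ in method and species as well as in cell type.

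The mix of isotypes differed between the cell types, read as shares of the summed RPKM of each family. The tables were normalized separately, so levels of different cell types stand side by side only. In MEFs, Tuba1a made up 40.4% of alpha-tubulin in the LARP7-/- and 35.7% in the wild-type library, while TUBA1A made up 6.51% (siLARP7) and 6.02% (siNC) in MDA-MB-231 and 1.88% (siLARP7) and 1.78% (siNC) in HCC1937. TUBA1B led the alpha genes of both lines, with 63.6% (siLARP7) and 68.3% (siNC) in MDA-MB-231 and 71.1% (siLARP7) and 68.3% (siNC) in HCC1937. In LARP7-/- MEFs Tuba1a stood above Tuba1b, which had 37.4% of the alpha sum, and in wild-type MEFs Tuba1b, with 42.2%, stood above Tuba1a. Shared reads could bear on these shares in MEFs as in the lines, and this was not examined.

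Among beta-tubulin genes, Tubb5 led in MEFs, with 39.4% of the beta sum in LARP7-/- and 44.0% in wild-type MEFs. Tubb6 made up 34.7% of the beta sum in LARP7-/- and 33.9% in wild-type MEFs, against 5.62% (siLARP7) and 6.22% (siNC) in MDA-MB-231 and 6.38% (siLARP7) and 7.74% (siNC) in HCC1937. TUBB made up 60.1% (siLARP7) and 62.1% (siNC) in MDA-MB-231. In HCC1937, TUBB was at 48.0% of the beta sum with siLARP7 and 40.7% with siNC, and TUBB4B at 35.9% with siLARP7 and 44.2% with siNC, so that their order differed between the libraries. Tubb2a made up 7.51% of the beta sum in LARP7-/- and 5.31% in wild-type MEFs, and Tubb2b 6.48% in LARP7-/- and 5.11% in wild-type MEFs. With the entry used here, TUBB3 was the lowest of the 9 genes in the control library of each cell type, and it held between 0.780 and 2.003% of the beta sum over the 6 libraries. With its second entry it would hold 1.68% (siLARP7) and 1.94% (siNC) in MDA-MB-231 and 4.02% (siLARP7) and 3.38% (siNC) in HCC1937, where it would stand above TUBB2B and TUBA1A.

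**Figure D3:**
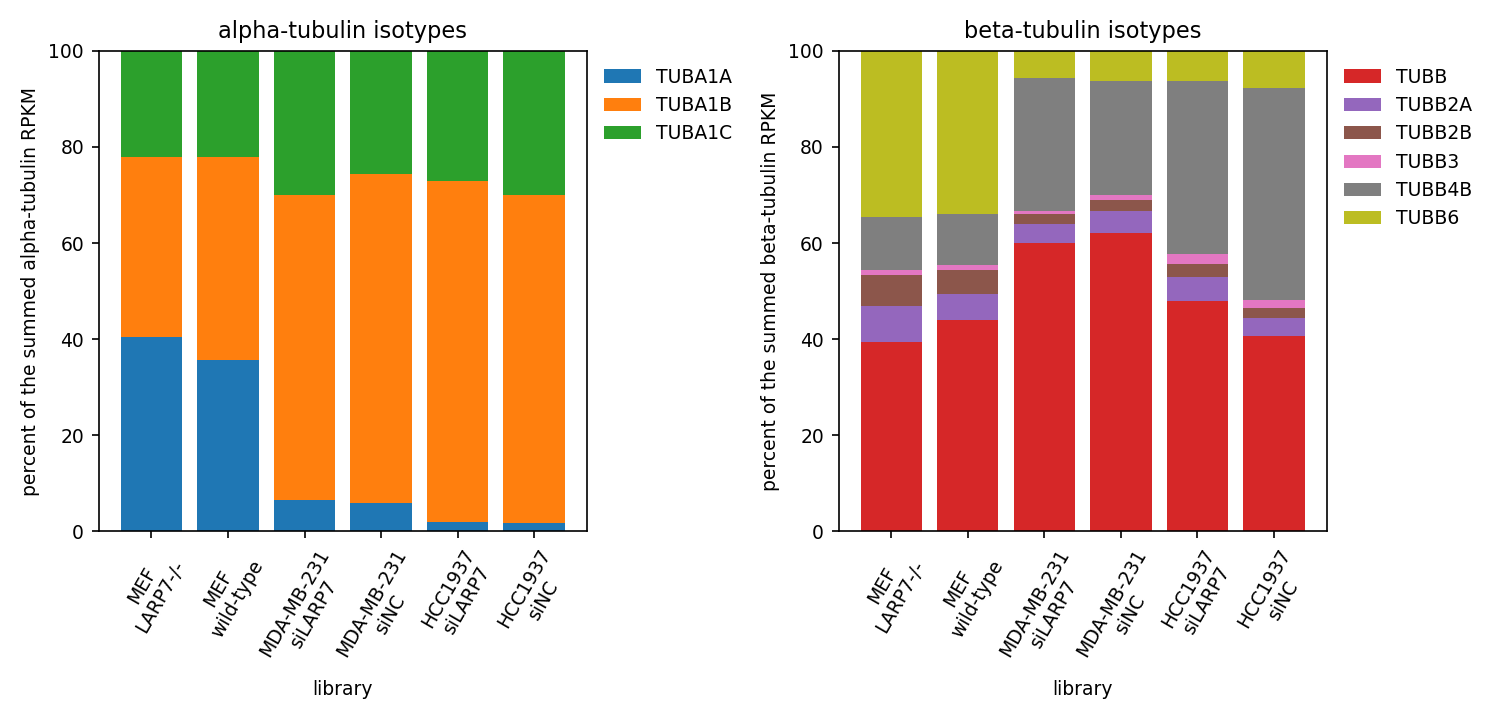
Share of each isotype (percent) in the summed RPKM of alpha-tubulin (left) and beta-tubulin (right) in the 6 libraries, each LARP7-depleted library left of its control. TUBA1A and TUBB6 fill wide parts of the MEF bars and narrow parts of the bars of both lines, and TUBB4B is widest in HCC1937 with siNC, at 44.2%.

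The ratio of summed alpha to summed beta RPKM was 1.33 in LARP7-/- and 1.43 in wild-type MEFs. It was 0.652 with siLARP7 and 0.644 with siNC in MDA-MB-231, and 1.32 with siLARP7 and 1.06 with siNC in HCC1937. In MDA-MB-231 both families were higher by nearly the same factor, 120.2% of the siNC level for alpha and 119% for beta. In HCC1937 alpha was at 108% and beta at 86.0% of the siNC level, and TUBB4B and TUBB6 were the beta genes below 0.

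Windows of 300 bases around the transcription starts, from 250 before to 50 after, are printed for TUBA1C and TUBB4B, which were highest together in MDA-MB-231, and for TUBB6, which was lower together with TUBB4B in HCC1937. They are from RefSeq (GRCh38.p14), where all 9 human genes had an entry and the window nearest the GENCODE start was taken. For TUBA1C this was the nearest of 3 windows, whose start lay 175 bases from the GENCODE start. For TUBB6 it was the nearest of 2, at 182 bases, and for TUBB4B the distance was 74 bases. Capitals mark CCAAT, the box bound by NF-Y, and TTTGAA, a core of the cell cycle genes homology region, on either strand.
TUBA1C (chr12:49264832-49265131, plus strand): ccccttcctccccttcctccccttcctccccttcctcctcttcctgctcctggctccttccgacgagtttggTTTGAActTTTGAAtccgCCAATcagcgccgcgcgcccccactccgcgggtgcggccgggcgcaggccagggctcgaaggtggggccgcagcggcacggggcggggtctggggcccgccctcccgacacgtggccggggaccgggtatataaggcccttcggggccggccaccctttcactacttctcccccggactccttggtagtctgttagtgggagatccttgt
TUBB4B (chr9:137241037-137241336, plus strand): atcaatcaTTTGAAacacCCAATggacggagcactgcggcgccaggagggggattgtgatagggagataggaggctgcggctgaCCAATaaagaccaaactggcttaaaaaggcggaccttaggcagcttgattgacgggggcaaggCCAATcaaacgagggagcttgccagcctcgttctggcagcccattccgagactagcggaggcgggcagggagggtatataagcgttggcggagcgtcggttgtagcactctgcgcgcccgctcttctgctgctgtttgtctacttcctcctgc
TUBB6 (chr18:12307991-12308290, plus strand): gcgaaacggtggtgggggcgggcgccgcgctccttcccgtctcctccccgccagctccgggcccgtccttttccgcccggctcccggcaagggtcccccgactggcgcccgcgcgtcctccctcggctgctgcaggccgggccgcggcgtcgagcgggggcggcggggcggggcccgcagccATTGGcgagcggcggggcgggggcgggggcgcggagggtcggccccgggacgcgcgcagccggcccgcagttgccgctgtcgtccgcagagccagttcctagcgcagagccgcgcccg
TTTGAA occurred in the windows of TUBA1C and TUBB4B and of no other tubulin gene, while 15.2% of all 34943 windows of this length held it. So few windows cannot be set apart from that share, and no link of a motif to a level was tested. CCAAT occurred in the windows of 7 of the 9 genes, all but TUBA1B and TUBB2A, and in 34.6% of all windows. TUBB4B held 3 copies of CCAAT. The motifs do not overlap each other, and a match is a description of the letters only.

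Genes around tubulin were read from lists. Of the genes that make or destroy tubulin RNA and protein, none of the 8 folding cofactors and none of the 14 chaperonin and prefoldin subunits reached 2-fold in any comparison. The chaperonin and prefoldin list, whose products fold new tubulin, had a median log2 ratio of -0.22 in MEFs, with 13 of 14 below 0 against 50% of all genes. Its median was -0.07 in MDA-MB-231 (0.01 with the trend removed). In HCC1937 it was -0.23 (-0.11 with a median ratio of 1). With the trend removed, which keeps the shift of that line, it was -0.31 there. The folding cofactors, which assemble the dimer, had medians of 0.05, 0.07 (0.10 with the trend removed) and -0.24 (-0.11 with a median ratio of 1, -0.06 with the trend removed). Tbca, the cofactor that holds free beta-tubulin, was at 118 RPKM in LARP7-/- and 118 RPKM in wild-type MEFs. The autoregulation list had medians of -0.18, -0.06 (0.07 with the trend removed) and -0.41 (-0.34 with a median ratio of 1, -0.06 with the trend removed) without a called gene. TTC5, named here for its role and outside the rule for names, was at 8.65 RPKM in LARP7-/- and 7.24 RPKM in wild-type MEFs, 0.582 (siLARP7) and 0.802 RPKM (siNC) in MDA-MB-231, and 1.07 (siLARP7) and 1.52 RPKM (siNC) in HCC1937.

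Stathmin, which binds free dimers and favours disassembly, was lower together with tubulin in MEFs: Stmn1 was at 25.9 RPKM in LARP7-/- and 53.8 RPKM in wild-type MEFs (log2 ratio -1.03), the called member of the 9 measured destabilising and severing genes. In the lines STMN1 was at 61.9 RPKM with siLARP7 and 53.2 RPKM with siNC in MDA-MB-231, and at 42.5 RPKM with siLARP7 and 45.4 RPKM with siNC in HCC1937. Nucleation genes had a median of -0.33 in MEFs with 17 of 21 below 0, -0.01 in MDA-MB-231 and -0.28 in HCC1937 (-0.18 with a median ratio of 1). MZT1, a small subunit of the gamma-tubulin complex, was at 8.90 RPKM with siLARP7 and 20.5 RPKM with siNC in MDA-MB-231 (log2 ratio -1.12, or -0.73 and not called with the trend removed). HAUS6, of the augmin complex that branches spindle microtubules, was at 2.30 RPKM with siLARP7 and 6.40 RPKM with siNC in HCC1937 (log2 ratio -1.17, or -0.85 with the trend removed).

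Of the other tubulins, Tubb4a, an isotype of brain, was at 5.58 RPKM in LARP7-/- and 1.78 RPKM in wild-type MEFs (log2 ratio 1.25), opposite to the abundant isotypes. TUBG1, the gamma-tubulin that starts microtubules, was at 16.7 RPKM in LARP7-/- and 19.98 RPKM in wild-type MEFs, 27.3 (siLARP7) and 35.8 RPKM (siNC) in MDA-MB-231, and 44.9 (siLARP7) and 45.5 RPKM (siNC) in HCC1937. Tubulin modifying enzymes and microtubule-associated proteins had no called gene, with medians of -0.01 and -0.01 in MEFs (the first above 0 with a median ratio of 1). Their medians were 0.07 and -0.06 in MDA-MB-231. In HCC1937 they were -0.12 and -0.19 (-0.05 and -0.07 with a median ratio of 1, -0.01 and -0.26 with the trend removed). Proliferation genes were also low in LARP7-/- MEFs, with 9 of 10 at least 2-fold lower (0.884% of all genes), a median of -1.20 and summed levels of 116 RPKM in LARP7-/- and 290 RPKM in wild-type MEFs. The 9 were Plk1, Mki67, Cdc20, Birc5, Ccnb1, Ccnb2, Top2a, Aurka and Cdk1, among them the mitotic kinase Plk1, at 14.6 RPKM in LARP7-/- and 41.9 RPKM in wild-type MEFs. Their median was -0.31 in MDA-MB-231 (-0.21 with the trend removed), where CCNB2 was called. In HCC1937 it was -0.32, where MKI67 was called as deposited. That median was -0.19 with a median ratio of 1, and -0.37 with the trend removed, where all 10 genes were below 0. The part of proliferation genes in the tubulin levels was not tested. Actin and vimentin genes, the other main filaments, had medians of -0.14, 0.19 and 0.17 with none called. In HCC1937 that median was 0.30 with a median ratio of 1 and -0.11 with the trend removed, where 6 of 7 genes were below 0. The value of -0.11 keeps the shift of that line, whose median over all genes was -0.14.

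**Figure D4:**
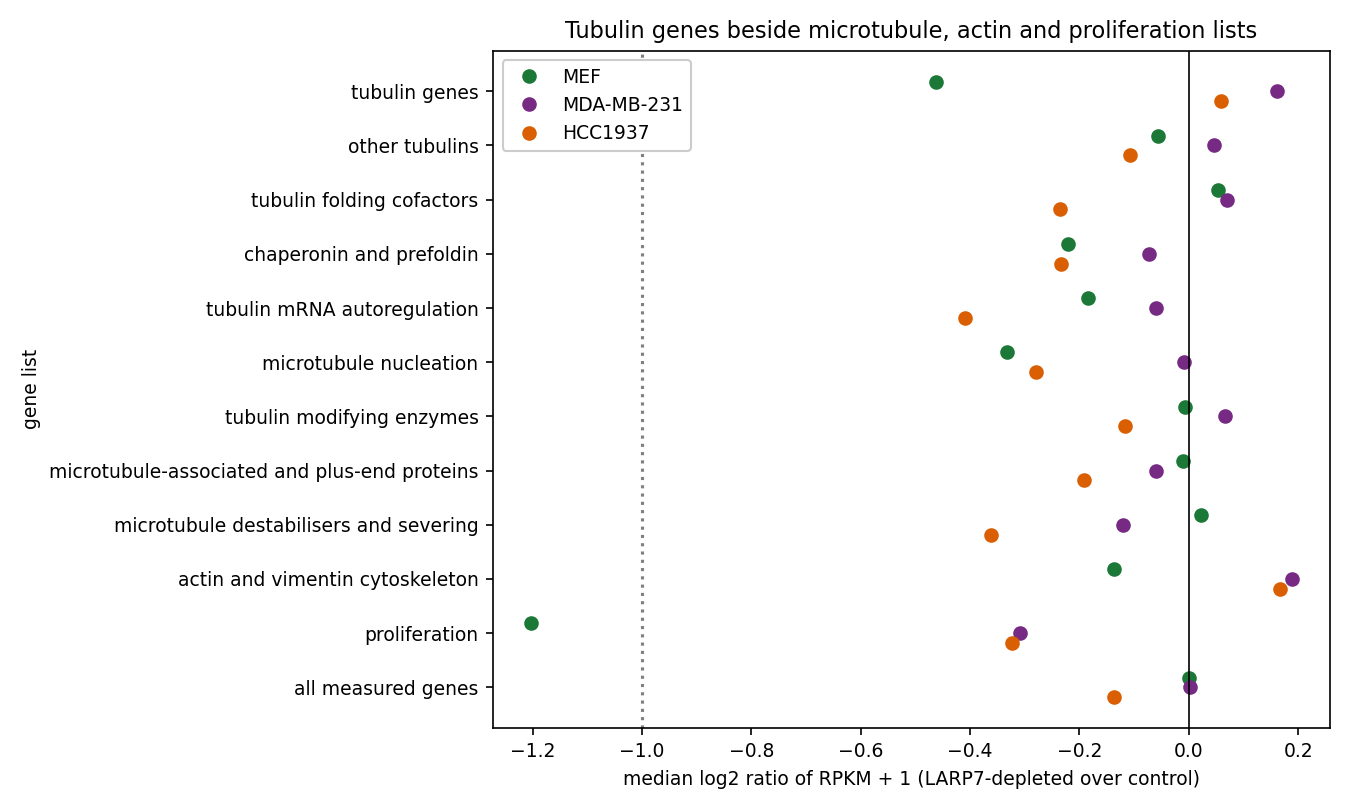
Median log2 ratio of RPKM + 1, LARP7-depleted over control, of the tubulin genes, of the lists around them and of all measured genes, for MEFs, MDA-MB-231 and HCC1937; the dotted line is the 2-fold size. The tubulin genes have medians of -0.46, 0.16 and 0.06, and the proliferation list is lowest in MEFs, at -1.20.

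The genes whose 3 log2 ratios lay nearest to those of the summed tubulin level, by Euclidean distance over the 3 comparisons and among 861 genes at 20 RPKM or more in all 6 libraries, were RANBP1, RANGAP1, PA2G4, AHCY and HN1. RANBP1 had log2 ratios of -0.54, 0.15 and -0.01 in MEFs, MDA-MB-231 and HCC1937 (distance 0.12). RANGAP1, which like RANBP1 acts on the GTPase Ran, had -0.69, 0.28 and -0.04 (distance 0.13). PA2G4, a growth-regulated RNA-binding protein, had -0.57, 0.22 and -0.18. The likeness is over 3 values only.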

How the data were processed

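Tubulin RNA was read from RNA-seq libraries of 6 cultures. The deposited tables hold RPKM for each library, per the file headers, and the authors' GFOLD log2 change at a setting of 0.01, quoted only as theirs. The labels give Homo sapiens for the MEF libraries too, whose table holds mouse gene IDs. Per the submitters' processing notes, cutadapt, FastQC and STAR were used with GRCh37; versions, the mouse build, strand and treatment of reads with several matches are not given in the sources used here. Columns were matched to libraries by cell type and column name. The 47 pseudoautosomal repeats were left out of each human table.

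The log2 ratio of depleted to control was taken on RPKM + 1, where a gene counted as measured if either library of its pair had 1 RPKM, and as called at 2-fold or more. The pseudocount understates changes of low genes. Depth was recovered from RPKM: in human tables single-exon genes under 50 reads (2535 to 3373 per library, 100%) gave whole reads within 0.01, and in MEFs from values shared by genes of equal length, of which 32.2 and 33.0% gave whole lengths within 0.05. The mouse depth is thus an estimate. Human reads used GENCODE release 29 exon lengths, which are approximate, with exact 95% Clopper-Pearson intervals of the ratio that cover counting error only. The trend on GC content, log2 length and level was fitted as a degree 3 polynomial to protein-coding genes of each line. Alternatives were a pseudocount of 0.1, a median ratio of 1, a trimmed mean, no level minimum or 5 RPKM, a 1.5-fold size, and the sum without its most abundant gene. The trend per gene and per list and the second TUBB3 entry were added after the data were seen.

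The coding ends of the alpha genes are not reported here. Members and lists were chosen with earlier results of these data known. The text names all members, called list genes, some of the 2 genes of highest control level per list, and the 5 genes nearest to the summed level. The size rule was checked on simulated data that held counting error only. Those data had no spread between replicates and no shared reads, so the check does not bear on either. Python 3.11.15 with numpy 2.4.6, pandas 2.3.3, scipy 1.17.1 and matplotlib 3.10.9 was used.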

Additional observations from a re-analysis of the deposited data

Results flagged for a closer look

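With siLARP7 against siNC, 5 tubulin genes and the summed level lay on opposite sides of 0 in the 2 cancer lines. Each line gives 1 library a group, so the difference was not tested. The log2 ratio in MDA-MB-231 minus that in HCC1937 was 0.97 for TUBB4B, 0.58 for TUBB6, 0.52 for TUBA1C, -0.21 for TUBB2A, -0.11 for TUBB3 and 0.30 for the summed level. TUBB4B, TUBB6, TUBB2A and TUBB3 lay on opposite sides under both scalings of the libraries as well. For TUBB3 the counting intervals of both lines include no difference, and for TUBB2A that of MDA-MB-231 does. TUBA1C and the summed level did not, since with a median ratio of 1 both were above 0 in HCC1937 (0.09 and 0.09). With the trend over GC, gene length and level taken out, TUBB2A and TUBB3 were below 0 in both lines, while TUBA1C (0.50 in MDA-MB-231, -0.28 in HCC1937) and the summed level (0.22 in MDA-MB-231, -0.34 in HCC1937) were on opposite sides, as then were TUBA1B (0.12 in MDA-MB-231, -0.14 in HCC1937) and TUBB (0.15 in MDA-MB-231, -0.25 in HCC1937). The trend-removed values of HCC1937 keep the shift of that line (median of all genes -0.14), so their side of 0 is not their side of the average gene. As deposited, the second TUBB3 entry was above 0 in both lines, at 0.033 in MDA-MB-231 and 0.038 in HCC1937.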

How the results depend on the processing

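No tubulin gene was called in either direction in any comparison at a pseudocount of 0.1, under both scalings, without a level minimum or at 5 RPKM. At a 1.5-fold size 4 were lower in MEFs and none in the lines. The summed log2 ratio of MEFs was -0.55 with a median ratio of 1, -0.55 with a trimmed mean and -0.49 without Tuba1b. In MDA-MB-231 it was 0.29 without TUBB and 0.22 with the trend removed. In HCC1937 it changed sign, at 0.091 with a median ratio of 1 and 0.10 with a trimmed mean, and was -0.17 without TUBA1B and -0.34 with the trend removed. The cause was not tested. Of single genes, TUBA1C changed sign in HCC1937 under both scalings, and TUBA1B, TUBB, TUBB2A and TUBB3 did with the trend removed. Trend-removed values keep the shift of that line, so a value below 0 need not be below the average gene. In MDA-MB-231 TUBB3 changed sign with its second entry, at 0.033. No gene changed sign in MEFs under the pseudocount or either scaling. The trend was not removed in MEFs. No paired analysis was possible because each group held 1 library, and no replicate could be left out.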
